A study of Bubalus bubalis with 9 samples.

Results

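Granulosa cells of late atretic follicles were set against those of early atretic follicles in the ovary of the Chinese buffalo, Bubalus bubalis. Total RNA was sequenced from 9 samples of granulosa cells, 3 from late atretic, 3 from early atretic and 3 from healthy follicles, and the comparison described here used the 6 samples of atretic follicles. All 20801 unique genes of the authors' deposited table for this pair of groups are its members, the same number as in the whole series, and 17552 of them had a p-value. The labels give neither the age of the animals nor the criteria by which follicles were staged, and no label names the animal behind a sample. The p-values therefore reflect variation among the 3 libraries of each group, part or all of which may be technical. For each gene the table gives a mean normalized count for either group, a log2 fold change of late over early, a p-value and an adjusted p, so no value of a single sample can be shown and the depth of each library is unknown.

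Granulosa cells surround the oocyte, respond to follicle-stimulating hormone and make estradiol and inhibin. Most follicles never ovulate and are lost by atresia, a degeneration in which granulosa cells stop dividing and die, the follicle wall is remodelled and immune cells enter. In early atresia the granulosa layer is still largely in place, whereas in late atresia it thins and sheds cells into the antrum.

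Summed over genes, the authors' mean counts came to 13798278 in late and 13538586 in early atretic follicles. Genes that mark granulosa cells were present in both groups, with mean counts of INHA, the inhibin alpha subunit, of 174243 in late and 79360 in early atretic follicles, and of FOXL2, a transcription factor that maintains granulosa identity, of 417 in late and 362 in early atretic follicles. Over the 10065 genes with a mean count of at least 100, the median log2 fold change was 0.05, so the groups were scaled to nearly the same centre, and the median absolute fold change was 0.20 on the log2 scale. Each error given below with a fold change is the standard error implied by the authors' deposited fold change and p-value, if that p came from a two-sided normal test, and its median over the same genes was 0.27. The median difference between the 2 stages was thus smaller than the median implied error.

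Of 17552 tested genes, 19 passed an adjusted p below 0.05 per the authors' deposited table, which is 0.108% of them. Expression was higher in late atretic follicles for 3 genes (0.0171%) and lower for 16 (0.0912%), and 12 of the lower genes but 1 of the higher genes differed by at least 2-fold. Of the 19, 13 carry a gene symbol and 6 only a LOC number, and RUNX2, APOD, LTF, SYNPO2, SRF, BCL3, PHGDH and RPL37 were among those that fell, while CLGN, OXR1 and SH3D19 rose. At an unadjusted p below 0.05, a looser rule used below to describe gene families and never as a call, 941 genes passed (5.36%), 414 of them with a fold change above 0 (2.36%) and 527 with one below 0 (3.00%). The same adjusted threshold was passed by 12.9% of tested genes in early atretic against healthy follicles, 1494 higher and 757 lower, and by 4.38% in late atretic against healthy follicles, 692 higher and 69 lower, and these comparisons share samples with the present one.

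**Figure D1:**
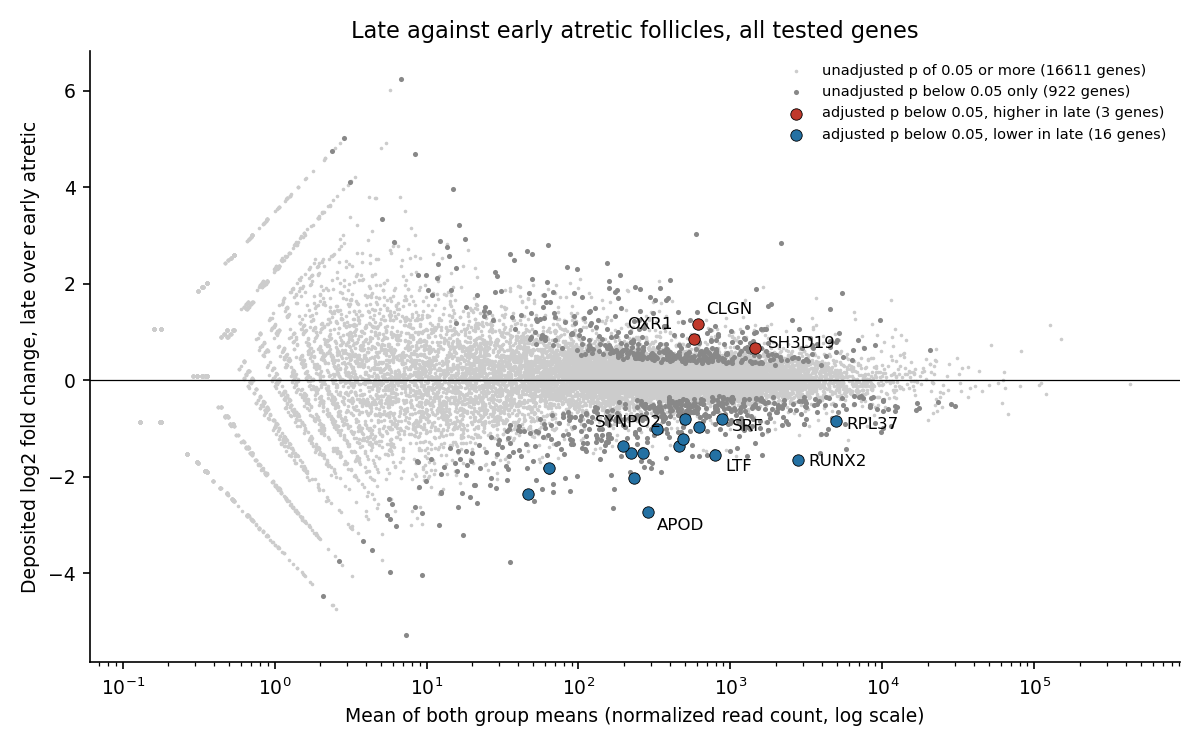
Each point is a tested gene, with the mean of both group means in normalized read counts on the horizontal log axis and the deposited log2 fold change of late over early atretic follicles on the vertical axis. Red points mark the 3 genes that rose and blue points the 16 that fell at an adjusted p below 0.05, and these lie at means between 46.2 and 4958, while the widest fold changes belong to genes with few counts.

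Among regulators of transcription, 3 fell. RUNX2, a runt-domain factor best known from bone that is induced in granulosa cells by the ovulatory surge in rodents, averaged 1339 normalized counts in late and 4218 in early atretic follicles, and the authors' deposited table gives a log2 change of −1.66 ± 0.39 with an adjusted p of 0.035. SRF, the serum response factor that drives immediate early and actin cytoskeleton genes, averaged 637 counts in late and 1112 in early atretic follicles, with a log2 change of −0.80 ± 0.18 and an adjusted p of 0.020 per the authors' deposited table. BCL3, an atypical IκB protein that acts with NF-κB in the nucleus, averaged 217 counts in late and 437 in early atretic follicles, with a log2 change of −1.01 ± 0.24 and an adjusted p of 0.041 per the authors' deposited table. In mean counts RUNX2 fell by 2879, and RPL37, described below, fell by 2828. In bulk RNA such a fall can come from fewer cells that express a gene or from less RNA of it per cell, and these cannot be told apart here.

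APOD had the largest fold change among the called genes with a symbol, and LTF the second smallest p-value of all genes. APOD, apolipoprotein D, a lipocalin that carries small lipids, averaged 75.8 counts in late and 502 in early atretic follicles, a log2 change of −2.73 ± 0.57 with an adjusted p of 0.0088 per the authors' deposited table. LTF, lactoferrin, an iron-binding protein of secretions and of neutrophil granules, averaged 403 counts in late and 1178 in early atretic follicles, a log2 change of −1.55 ± 0.28 with an adjusted p of 0.00023 per the authors' deposited table. Both late means were far below the early ones. LTF is also on the list of neutrophil markers, whose summed mean counts were 820 in late and 1961 in early atretic follicles, and most of the difference between these sums is that of LTF itself. Of the 9 tested markers 7 had a fold change below 0 and 1, LTF itself, passed the unadjusted threshold. The neutrophil markers MPO and MMP8 were listed at 0 in both groups, and S100A8 averaged 76.0 counts in late and 201 in early atretic follicles. The part of neutrophils in the fall of LTF was not tested.

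SYNPO2, SEPT4 and MFAP3L also fell. SYNPO2, synaptopodin 2, an actin-binding protein of muscle, had the smallest p-value of all genes, 2.0e-08, and averaged 291 counts in late and 679 in early atretic follicles, a log2 change of −1.22 ± 0.22 with an adjusted p of 0.00023 per the authors' deposited table. SEPT4, a septin with an isoform that antagonises XIAP in human cells, averaged 110 counts in late and 282 in early atretic follicles, a log2 change of −1.36 ± 0.31 with an adjusted p of 0.020 per the authors' deposited table. These falls were each more than 4 times their implied error. MFAP3L averaged 116 counts in late and 329 in early atretic follicles, a log2 change of −1.51 ± 0.33 with an adjusted p of 0.015 per the authors' deposited table.

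SYNPO2 is on the list of pericyte and smooth muscle markers and, with SRF, on the list of contractile and SRF target genes. The summed mean counts of the 15 pericyte and smooth muscle markers were 13183 in late and 10810 in early atretic follicles. An unadjusted p below 0.05 was reached by 4 (26.7%) on the lower side and 2 (13.3%) on the higher side. Over all tested genes these shares were 3.00% and 2.36%. ACTG2, enteric smooth muscle actin, had a log2 change of −0.48 ± 0.17, whereas TAGLN, transgelin, had a log2 change of 0.79 ± 0.37 per the authors' deposited table. None of these markers was listed at 0. Of the 38 contractile and SRF target genes, 18 had a fold change above 0 and 20 below 0, with a median of −0.04. Their part in the fall of SYNPO2 was not tested.

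PHGDH, the enzyme that commits a glycolytic intermediate to serine synthesis, averaged 419 counts in late and 816 in early atretic follicles, a log2 change of −0.96 ± 0.24 with an adjusted p of 0.048 per the authors' deposited table, just inside the threshold. Of the 18 tested enzymes of serine synthesis and one-carbon metabolism, 2 (11.1%) passed the unadjusted threshold on the lower side. That share was 3.00% over all tested genes. The 2 were PHGDH and MAT2A, which makes S-adenosylmethionine, and the list's median was −0.06. RPL37, a protein of the large ribosomal subunit, averaged 3544 counts in late and 6373 in early atretic follicles, a log2 change of −0.85 ± 0.19 with an adjusted p of 0.015 per the authors' deposited table. It was the called gene with the highest mean count.

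Entries without a gene symbol also fell. LOC112586997, a long non-coding RNA in RefSeq, averaged 91.4 counts in late and 375 in early atretic follicles, a log2 change of −2.04 ± 0.42 per the authors' deposited table. LOC112586774 averaged 15.1 counts in late and 77.4 in early atretic follicles, a log2 change of −2.36 ± 0.57 per the authors' deposited table, the called gene with the lowest mean. The entries LOC102413439, LOC102410894 and LOC102399966, had log2 fold changes of −1.83, −1.50 and −0.80 per the authors' deposited table.

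The 3 genes that rose had moderate changes. CLGN, calmegin, a chaperone of the endoplasmic reticulum known in the mouse for its part in sperm fertility, averaged 841 counts in late and 377 in early atretic follicles, a log2 change of 1.16 ± 0.28 with an adjusted p of 0.041 per the authors' deposited table. OXR1, which protects cells from oxidative damage, averaged 742 counts in late and 411 in early atretic follicles, a log2 change of 0.85 ± 0.19 with an adjusted p of 0.015 per the authors' deposited table. SH3D19, an SH3-domain adaptor protein, averaged 1793 counts in late and 1122 in early atretic follicles, a log2 change of 0.68 ± 0.16 with an adjusted p of 0.038 per the authors' deposited table. Of these, CLGN alone passed 2-fold.

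**Figure D2:**
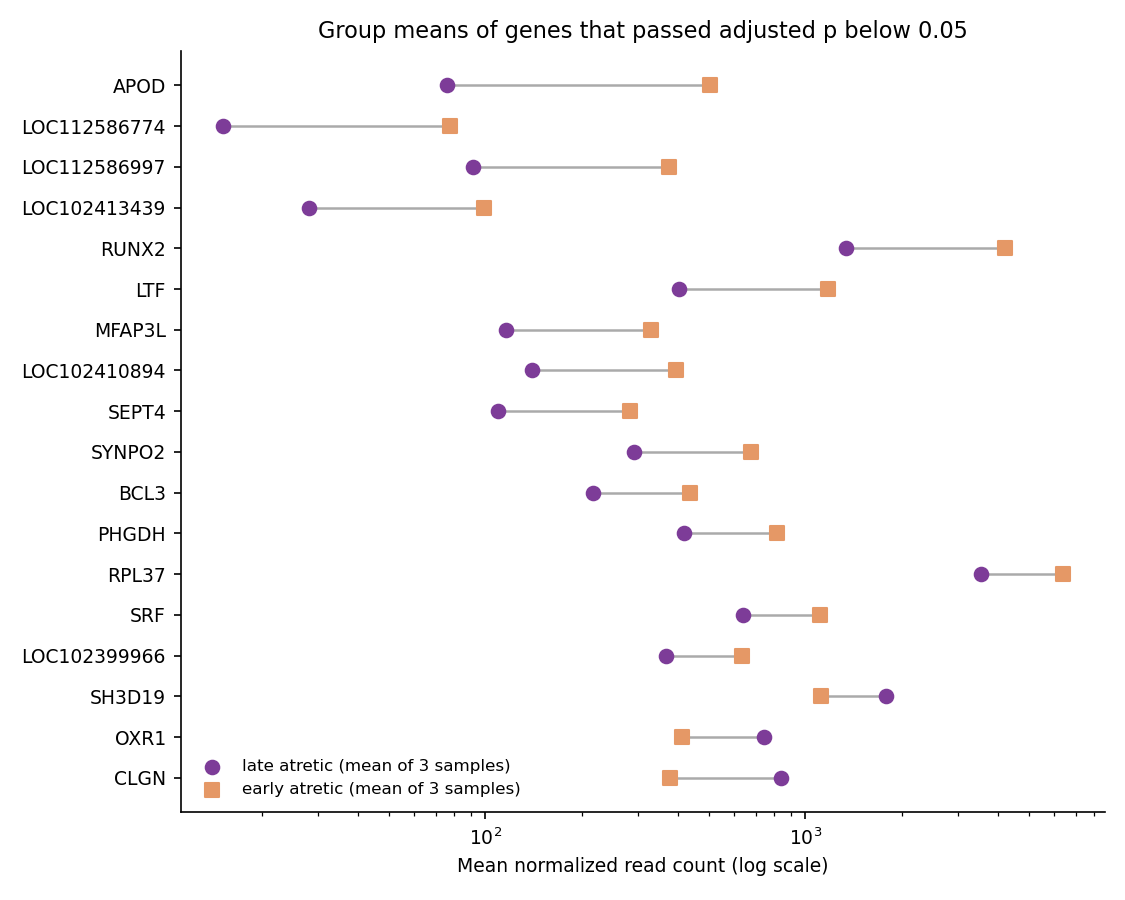
The group means of 18 of the 19 called genes are drawn on a log axis of normalized read counts, with circles for late and squares for early atretic follicles, each the mean of 3 samples without an error bar because values per sample are not used here. Genes are ordered by fold change, from APOD, with 75.8 counts in late and 502 in early atretic follicles, to CLGN, with 841 in late and 377 in early atretic follicles.

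Several of the called genes are described here beside the healthy group of the authors' other tables. These tables share the 3 early or the 3 late samples with the present comparison, so their fold changes are not independent of it. APOD had a log2 fold change of 2.73 ± 0.50 in early atretic against healthy follicles, with an adjusted p of 3.0e-06, and −0.02 in late atretic against healthy follicles per the authors' deposited tables. RUNX2 had a log2 change of 2.82 ± 0.48 in early atretic against healthy follicles, with an adjusted p of 3.7e-07, and 1.16 ± 0.49 in late atretic against healthy follicles, with an adjusted p of 0.22 per the authors' deposited tables. BCL3 had a log2 change of 1.45 ± 0.29 early against healthy and 0.43 ± 0.32 late against healthy per the authors' deposited tables. In each of these 3 genes the early atretic mean was well above the healthy mean. LTF had a log2 change of 1.33 ± 0.36 early against healthy and −0.24 ± 0.42 late against healthy per the authors' deposited tables. MFAP3L had a log2 change of 1.41 ± 0.30 early against healthy and −0.11 ± 0.29 late against healthy per the authors' deposited tables. For these genes the early atretic mean was the highest of the 3 groups.

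SRF and PHGDH had another order. SRF had a log2 change of −0.11 ± 0.24 early against healthy, with an adjusted p of 0.89, and −0.93 ± 0.28 late against healthy, with an adjusted p of 0.030 per the authors' deposited tables. PHGDH had a log2 change of 0.10 ± 0.23 early against healthy, with an adjusted p of 0.90, and −0.88 ± 0.28 late against healthy, with an adjusted p of 0.042 per the authors' deposited tables. For both genes the late atretic mean was the lowest of the 3, and the early and healthy means lay within the implied error of each other. Among the genes that rose in late atretic follicles, CLGN had a log2 change of −0.82 ± 0.25 early against healthy, with an adjusted p of 0.014, and 0.32 ± 0.26 late against healthy, with an adjusted p of 0.79 per the authors' deposited tables. OXR1 had a log2 change of −0.61 ± 0.22 early against healthy, with an adjusted p of 0.051, and 0.23 ± 0.25 late against healthy per the authors' deposited tables. SYNPO2 had a log2 change of 0.69 ± 1.08 early against healthy, with an adjusted p of 0.82. Late against healthy its log2 change was −0.555 ± 0.81, with an adjusted p of 0.98 per the authors' deposited tables. Both errors of SYNPO2 were larger than its 0.22 between late and early.

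**Figure D3:**
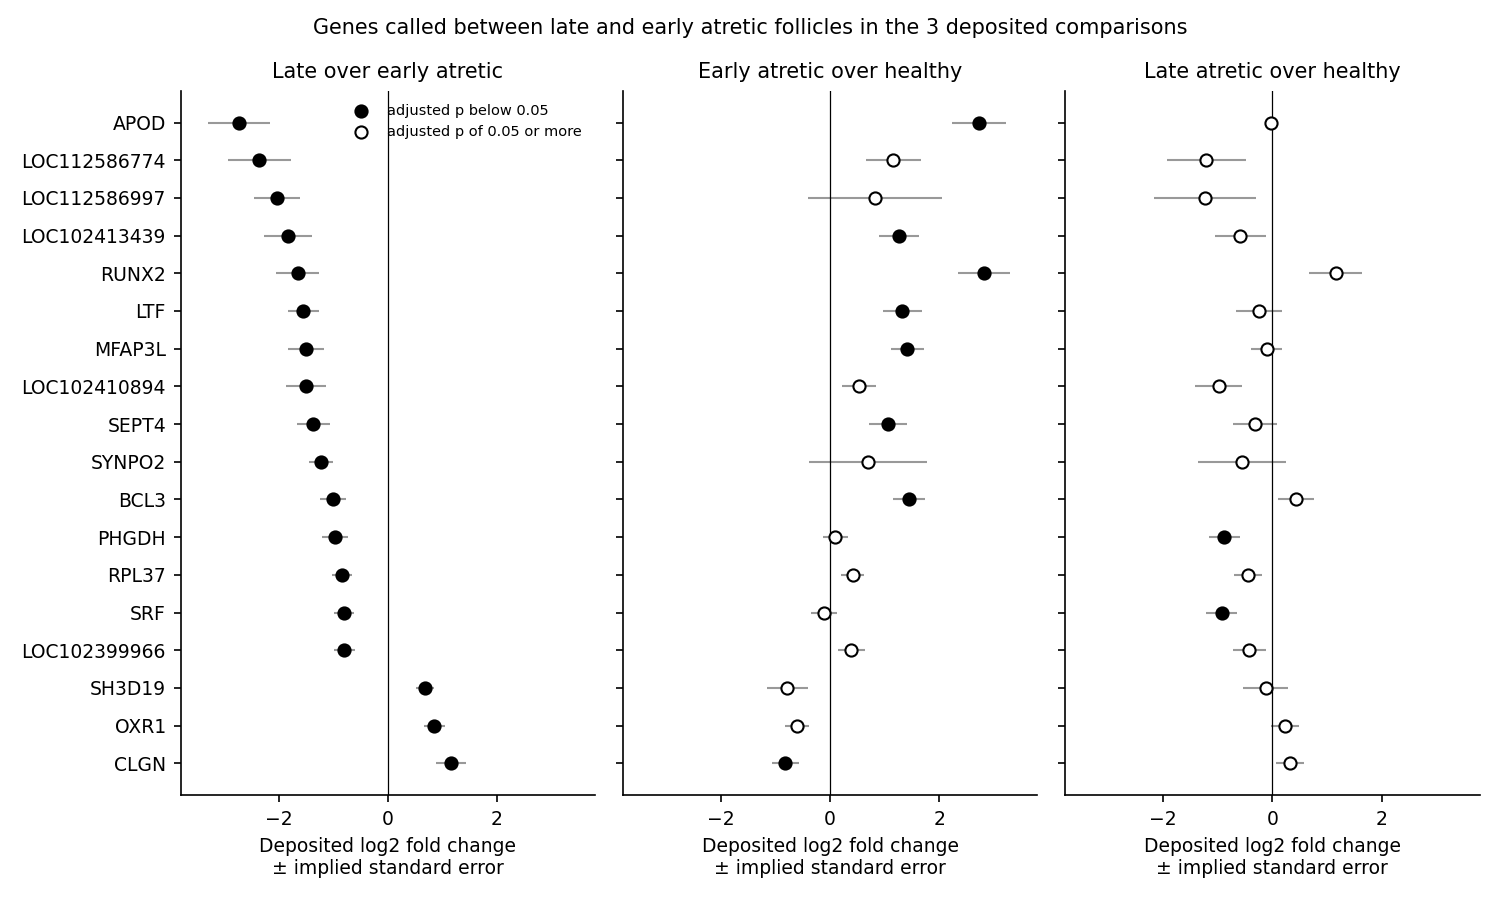
Deposited log2 fold changes of 18 of the 19 called genes, with the implied standard error as horizontal bars, are shown for late over early, early over healthy and late over healthy follicles, and filled points mark an adjusted p below 0.05. APOD and RUNX2 sit at 2.73 and 2.82 in the middle panel, whereas SRF and PHGDH are filled in the right panel, at −0.93 and −0.88.

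Of the 73 symbol families with a tested member, the cytosolic ribosomal proteins had the largest share of members past the unadjusted threshold. These proteins build the subunits of the cytoplasmic ribosome. Of 82 tested members 77 had a fold change below 0 and 5 above 0, RPL37 passed the adjusted p, and 31 (37.8%) had an unadjusted p below 0.05 on the lower side and 0 on the higher side. The background was 3.00% over all genes, and in the highest of 10 groups of genes by mean count, where 74 of the members lie, it was 5.41% on the lower side and 3.19% on the higher side. The family's median log2 fold change was −0.34, against 0.06 over all tested genes, and its share of all counts was 4.75% in late and 6.07% in early atretic follicles. The members share paralogs and pseudogenes, between which the authors' counting may have split reads, so single values are uncertain. They are also mostly short transcripts. Over well counted genes, fold changes were lower for genes with short than with long RefSeq gene spans. These spans are not transcript lengths and come from an assembly not known to be the authors', so no value is given. The part of transcript length in the family's values was not tested.

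Within that family the difference was uneven, with log2 fold changes from −2.46 to 0.16. RPS29 averaged 3140 counts in late and 8401 in early atretic follicles, a log2 change of −1.42 ± 0.36 with an adjusted p of 0.062 per the authors' deposited table. RPS28 averaged 2006 counts in late and 5711 in early atretic follicles, a log2 change of −1.51 ± 0.40 with an adjusted p of 0.076 per the authors' deposited table. Both small-subunit proteins lay just outside the threshold with larger fold changes than RPL37, and all 3 are among the shortest of the ribosomal proteins. RPL38, another short member, averaged 953 counts in late and 1829 in early atretic follicles, a log2 change of −0.94 ± 0.29 per the authors' deposited table. RPL3 and RPL4, the longest proteins of the large subunit, had log2 changes of −0.24 ± 0.22 and −0.06 ± 0.19 per the authors' deposited table. These short and long members were picked for their length after values had been seen, and do not cover every short or long member. A relation to length was not tested. RPS18 averaged 9543 counts in late and 14823 in early atretic follicles, a log2 change of −0.64 ± 0.18 per the authors' deposited table, and RPS2, with 24690 in late and 35684 in early atretic follicles, was also lower with a smaller fold change, a log2 change of −0.53 ± 0.19. The 5 members above 0 were RPL26, RPL7, RPS13, RPS3A and RPS27L, and the highest of them had a log2 change of 0.16. Beside healthy follicles the family's median was 0.09 for early atretic follicles, with 0 members called, and −0.23 for late atretic follicles, with 1 member called, as lower. Among all tested genes 12.9% were called early against healthy and 4.38% late against healthy.

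Other families of translation and energy metabolism had medians close to 0. Of 77 mitochondrial ribosomal proteins, 2 on each side passed the unadjusted threshold, and the median was −0.00. Of 46 NDUF genes, which encode complex I and its assembly factors, 2 passed on the higher side and 0 on the lower side, with a median of 0.00. The 39 proteasome subunits had a median of −0.09, with none passing the unadjusted or the adjusted threshold per the authors' deposited table. The 51 eukaryotic initiation factors had a median of 0.06, with 2 on each side, and the 34 aminoacyl-tRNA synthetases had a median of −0.00, with 1 on each side. Among 19 ATP synthase subunits, ATP5ME and ATP5MC2 (10.5%) passed on the lower side and none on the higher side. The lower share was 3.00% over all tested genes.

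Immediate early genes, transcription factors and feedback regulators that cells switch on within minutes of a stimulus, mostly had fold changes below 0. Of 32 tested members 30 had a fold change below 0, the median was −0.61, SRF passed the adjusted p, and 8 passed the unadjusted threshold on the lower side and 0 on the higher side. EGR2 averaged 41.7 counts in late and 112 in early atretic follicles, a log2 change of −1.43 ± 0.42 with an adjusted p of 0.18 per the authors' deposited table. IER2 averaged 577 counts in late and 1253 in early atretic follicles, a log2 change of −1.12 ± 0.36 with an adjusted p of 0.33 per the authors' deposited table. The other members past the unadjusted threshold were DUSP5, ATF3, JUNB, EGR3 and EGR1, and EGR1 averaged 6699 counts in late and 13381 in early atretic follicles. NR4A2 and KLF4 were the 2 members above 0. Beside healthy follicles, 17 of the 32 members were called higher in early atretic follicles, with a median of 1.21, while 4 were called higher and SRF lower in late atretic follicles, with a median of 0.63. Over all tested genes 1494 of 17386 were called higher in early and 692 of 17366 in late atretic follicles.

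Genes of the ovulatory and EGF-like response, which granulosa cells mount after the gonadotropin surge, included RUNX2. Of 27 tested members 2 (7.41%) passed the unadjusted threshold, both on the lower side, against 3.00% of all tested genes. The median was −0.40. Beside RUNX2 it was PTX3, pentraxin 3, a protein of the cumulus matrix, with 122 counts in late and 421 in early atretic follicles, a log2 change of −1.79 ± 0.64 and an adjusted p of 0.52 per the authors' deposited table.

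Components of Notch and Hedgehog signalling, pathways between granulosa cells, oocyte and theca, had a median of −0.42, with 23 of 32 members below 0. GAS1, a Hedgehog co-receptor, averaged 651 counts in late and 1925 in early atretic follicles, a log2 change of −1.56 ± 0.48 with an adjusted p of 0.25 per the authors' deposited table. GLI1, a transcription factor and target of the pathway, averaged 12.8 counts in late and 42.2 in early atretic follicles. SMO, the signal transducer, and GLI3 were also past the unadjusted threshold. The members past it, 5 in all (15.6%), lay on the lower side, against 3.00% of all tested genes. None of the 32 passed the adjusted p per the authors' deposited table.

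In the insulin-like growth factor system 3 of 20 members (15.0%) passed the unadjusted threshold on the lower side, against 3.00% of all tested genes, and 0 on the higher side, with 9 members above and 11 below 0 and a median of −0.11. IGF2, a ligand, averaged 411 counts in late and 1144 in early atretic follicles, a log2 change of −1.48 ± 0.53 per the authors' deposited table. IRS2, an adaptor of the receptors, averaged 310 counts in late and 924 in early atretic follicles, a log2 change of −1.58 ± 0.52 per the authors' deposited table. In WNT signalling 1 of 49 members passed on the higher side, the secreted inhibitor SFRP2 with 544 counts in late and 145 in early atretic follicles, and 3 (6.12%) passed on the lower side. WNT5A, a ligand among those, averaged 91.6 counts in late and 344 in early atretic follicles, a log2 change of −1.91 ± 0.76 with an adjusted p of 0.66 per the authors' deposited table. Of 49 genes of TGF-beta, BMP and activin signalling, BMPR2 and SMAD2 passed on the higher side and TGFB1 on the lower side, with a median of 0.09.

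Extracellular matrix genes had fold changes in both directions, and none of the collagens, core glycoproteins or proteoglycans passed the adjusted p in the deposited calls. Of 41 collagen genes 6 (14.6%) passed the unadjusted threshold on the higher side and 1 on the lower side, with a median of 0.24. Over all tested genes 2.36% passed on the higher and 3.00% on the lower side. COL6A3, a chain of the microfibrillar type VI collagen, averaged 8484 counts in late and 2433 in early atretic follicles, a log2 change of 1.80 ± 0.53 with an adjusted p of 0.18 per the authors' deposited table. COL21A1 averaged 2630 counts in late and 906 in early atretic follicles, a log2 change of 1.54 ± 0.44 with an adjusted p of 0.16 per the authors' deposited table. Both late means were the higher ones by a wide margin. COL1A1, a chain of the fibrillar type I collagen, averaged 6830 counts in late and 3472 in early atretic follicles, a log2 change of 0.98 ± 0.40 per the authors' deposited table. COL3A1, the chain of type III collagen, averaged 5618 counts in late and 3478 in early atretic follicles, a log2 change of 0.69 ± 0.33 per the authors' deposited table. The errors of these genes were between 0.33 and 0.53 on the log2 scale.

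Among 44 core matrix glycoproteins 4 (9.09%) passed the unadjusted threshold on each side. The shares over all tested genes were 2.36% on the higher and 3.00% on the lower side. TNC, tenascin C, averaged 397 counts in late and 108 in early atretic follicles, a log2 change of 1.88 ± 0.53 with an adjusted p of 0.14 per the authors' deposited table. FBLN2, fibulin 2, averaged 15.3 counts in late and 86.8 in early atretic follicles, a log2 change of −2.50 ± 0.91 with an adjusted p of 0.54 per the authors' deposited table. Among 38 proteoglycan and hyaluronan genes 3 passed on the higher side and 2 on the lower side, and ASPN, asporin, a small leucine-rich protein that binds collagen, averaged 3763 counts in late and 526 in early atretic follicles, a log2 change of 2.84 ± 1.27 with an adjusted p of 0.80 per the authors' deposited table. Matrix metalloproteases had a median of −0.49 over 17 members, with MMP15 and MMP17 past the unadjusted threshold on the lower side. The summed mean counts of 17 fibroblast and stroma markers, 16 of them tested, were 33006 in late and 29006 in early atretic follicles. These markers include collagens such as COL1A1, COL3A1 and COL14A1. On each side 2 of the markers passed the unadjusted threshold, and the part of these cells in the collagen values was not tested.

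Genes of granulosa identity and hormone signalling had RUNX2 as their only called member. Of 34 tested, 1 (2.94%) passed the unadjusted threshold on the higher side and 2 (5.88%) on the lower side. The shares over all tested genes were 2.36% and 3.00%. FSHR, the receptor for follicle-stimulating hormone, averaged 4299 counts in late and 2592 in early atretic follicles, a log2 change of 0.73 ± 0.36 with an adjusted p of 0.91 per the authors' deposited table. INHA, given above by its means, had a log2 change of 1.13 ± 0.68 per the authors' deposited table. FST, follistatin, which binds activin, averaged 17434 counts in late and 9125 in early atretic follicles, a log2 change of 0.93 ± 0.73 per the authors' deposited table. The late mean was the higher one for these 3 genes, and FSHR alone passed the unadjusted threshold. CYP19A1, the aromatase that makes estradiol, held as LOC102392019, averaged 17337 counts in late and 5464 in early atretic follicles, a log2 change of 1.67 ± 1.89 with an adjusted p of 0.997 per the authors' deposited table. LHCGR, the luteinizing hormone receptor, averaged 331 counts in late and 91.8 in early atretic follicles, a log2 change of 1.85 ± 1.55 per the authors' deposited table. These late means were higher than the early ones, but the difference was smaller than or little above the implied error for CYP19A1, LHCGR and FST.

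Beside healthy follicles, INHA had a log2 change of −2.03 ± 0.45 in early atretic follicles, with an adjusted p of 0.00022, and −0.91 ± 0.58 in late atretic follicles, with an adjusted p of 0.63 per the authors' deposited tables. Of the granulosa list, 14 members were called lower and 2 higher in early atretic against healthy follicles, with a median of −0.91, and 2 lower and 1 higher in late atretic against healthy follicles, with a median of −0.58. Among all 17386 genes tested early against healthy, 757 were called lower and 1494 higher. Among all 17366 tested late against healthy, 69 were called lower and 692 higher. Steroid synthesis genes had 0 of 16 members past the unadjusted threshold between late and early atretic follicles, with 0 called by the adjusted p, and STAR, which carries cholesterol into mitochondria, averaged 1343 counts in late and 719 in early atretic follicles, a log2 change of 0.90 ± 1.65 per the authors' deposited table.

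Mitosis genes mostly had fold changes above 0, and hardly any passed a threshold. Of 66 members 59 had a fold change above 0, with a median of 0.33, and CDK1, the kinase that drives entry into mitosis, was the 1 member past the unadjusted threshold, with 460 counts in late and 295 in early atretic follicles, a log2 change of 0.64 ± 0.28 and an adjusted p of 0.79 per the authors' deposited table. MKI67, a marker of dividing cells, averaged 3368 counts in late and 2637 in early atretic follicles, a log2 change of 0.35 ± 0.29 per the authors' deposited table. Beside healthy follicles, 28 of the 66 were called lower in early atretic follicles, with a median of −0.82, and 2 in late atretic follicles, with a median of −0.51. Over all tested genes 757 of 17386 were called lower in early and 69 of 17366 in late atretic follicles. DNA replication genes had a median of 0.11 over 64 members, with ORC2 alone past the unadjusted threshold, on the higher side. Of 22 D cyclins, G1 kinases and their regulators, 12 had a fold change above 0 and 10 below 0, with a median of 0.07. RB1, the retinoblastoma protein, passed the unadjusted threshold on the higher side. On the lower side 3 (13.6%) passed, MYCN and the kinase inhibitors CDKN1C and CDKN2B, against 3.00% of all tested genes. CDKN1C averaged 66.2 counts in late and 260 in early atretic follicles, a log2 change of −1.98 ± 0.53 with an adjusted p of 0.087 per the authors' deposited table. CDKN2B averaged 46.4 counts in late and 292 in early atretic follicles, a log2 change of −2.65 ± 0.94 with an adjusted p of 0.52 per the authors' deposited table.

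None of the BCL2 family, death receptor and caspase, autophagy or lysosome genes passed the adjusted p per the authors' deposited table. SEPT4, called above, is on none of these lists. Of 21 BCL2 family members 2 (9.52%) passed the unadjusted threshold, both on the lower side, against 3.00% of all tested genes. They were BOK, a pro-death member, and BMF, a BH3-only member. BOK averaged 21.9 counts in late and 59.8 in early atretic follicles, a log2 change of −1.44 ± 0.45 with an adjusted p of 0.26 per the authors' deposited table. BAX, which permeabilises mitochondria, averaged 474 counts in late and 574 in early atretic follicles, a log2 change of −0.28 ± 0.24 per the authors' deposited table. Of 29 death receptor and caspase genes, XIAP, an inhibitor of caspases, was the only one past the unadjusted threshold, with 583 counts in late and 416 in early atretic follicles. Of 34 autophagy genes 4 (11.8%), against 2.36% of all tested genes, passed on the higher side and 0 on the lower side. They were OPTN, an autophagy receptor, with 1080 counts in late and 575 in early atretic follicles, a log2 change of 0.91 ± 0.32 per the authors' deposited table, and GABARAP, ATG12 and ATG10. Lysosome genes had a median of 0.25, with 40 of 50 above 0, and none passed the unadjusted threshold per the authors' deposited table.

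Macrophage markers had large fold changes with large implied errors. All 23 tested macrophage and monocyte markers had a fold change above 0, with a median of 0.84, and none passed the unadjusted or adjusted threshold per the authors' deposited table. CD68, a protein of macrophage lysosomes, averaged 1914 counts in late and 928 in early atretic follicles, a log2 change of 1.04 ± 1.26 per the authors' deposited table. CSF1R, the receptor on which macrophages depend, averaged 974 counts in late and 412 in early atretic follicles, a log2 change of 1.24 ± 1.51 per the authors' deposited table. The summed mean counts of the 24 macrophage and monocyte markers found, 23 of them tested, were 9746 in late and 5017 in early atretic follicles. None of them was listed at 0. Beside healthy follicles 16 of these markers were called higher in late atretic follicles, with a median of 3.96, and 16 in early atretic follicles, with a median of 2.87. Over all tested genes 692 of 17366 were called higher in late and 1494 of 17386 in early atretic follicles. Markers of T, B and NK cells had a median of 0.55, with 20 of 21 above 0 and none past the unadjusted threshold. Most of them had few counts, with a median mean count of 12.5 and 3 of the 21 at a mean of at least 100.

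Of 37 interferon response genes 4 (10.8%) passed the unadjusted threshold on the higher side, against 2.36% of all tested genes. On the lower side 0 passed, and the median was 0.34. HERC5, a ligase that attaches ISG15, averaged 133 counts in late and 52.9 in early atretic follicles, a log2 change of 1.33 ± 0.48 with an adjusted p of 0.55 per the authors' deposited table, and the others were EIF2AK2, DDX58 and ZBP1. Among complement and coagulation genes 4 of 40 passed on the higher side, F2R, F8, CD59 and PLAT, while CLU, clusterin, a secreted chaperone, passed on the lower side with 6271 counts in late and 11582 in early atretic follicles, a log2 change of −0.89 ± 0.37 and an adjusted p of 0.73 per the authors' deposited table. Of 56 cytokines, chemokines and receptors 26 had a fold change above 0 and 30 below 0, with a median of −0.08. IL6R, a receptor subunit for interleukin 6, passed the unadjusted threshold on the higher side, and ACKR3, CXCL8 and TGFB1 passed on the lower side. CXCL8, a chemokine that attracts neutrophils and the member with the lowest fold change, averaged 4.81 counts in late and 65.8 in early atretic follicles, a log2 change of −3.77 ± 1.22 with an adjusted p of 0.33 per the authors' deposited table.

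Endothelial markers had a median of −0.95, with 18 of 22 below 0. Past the unadjusted threshold were 3 (13.6%), all on the lower side, against 3.00% of all tested genes. VWF, von Willebrand factor, averaged 1233 counts in late and 2263 in early atretic follicles, a log2 change of −0.88 ± 0.28 with an adjusted p of 0.29 per the authors' deposited table. NOS3, the endothelial nitric oxide synthase, averaged 315 counts in late and 798 in early atretic follicles, a log2 change of −1.34 ± 0.49 with an adjusted p of 0.55 per the authors' deposited table. PECAM1, which joins endothelial cells, averaged 55.9 counts in late and 59.1 in early atretic follicles. Summed, the 22 markers came to 2521 mean counts in late and 4322 in early atretic follicles, most of it from VWF and NOS3, and SOX17 was listed at 0 in late atretic follicles, against 3.08 counts in early ones.

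Markers of further cell types gave no call. The summed mean counts were 5348 in late and 4742 in early atretic follicles for 10 theca markers, 9923 in late and 8050 in early for 9 luteal markers, and 10534 in late and 17312 in early for 14 surface epithelium markers. Of those 14, 6 had a fold change above 0 and 8 below 0, and most of the difference in their sum lay in the keratins KRT18, with 1365 counts in late and 4286 in early atretic follicles, and KRT8, with 6667 in late and 10933 in early atretic follicles. Neither keratin passed the unadjusted threshold. KRT7 and EPCAM, surface epithelium markers, were listed at 0 in late atretic follicles, against 3.17 and 0.35 counts in early ones. The 6 tested red blood cell markers summed to 16.65 in late and 16.69 in early atretic follicles, and the 11 tested oocyte markers to 42.9 in late and 24.7 in early, so both lists were near absent. SLC4A1, of red blood cells, and FIGLA and MOS, of oocytes, were listed at 0 in both groups.

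Beside serine synthesis, where PHGDH was called, the metabolic and protein-folding lists had no called member. The median log2 change was −0.07 for 25 sterol synthesis genes, −0.02 for 23 glycolysis genes, −0.01 for 22 hypoxia response genes, 0.08 for 41 genes of fatty acid oxidation and storage and 0.10 for 24 genes of the unfolded protein response. At most 1 member of each of these lists passed the unadjusted threshold on either side. The 20 genes of cholesterol uptake, efflux and esterification had a higher median, 0.24, with 13 above 0, and SOAT1, which esterifies cholesterol for storage, was the 1 member past that threshold, with 2972 counts in late and 2147 in early atretic follicles. In all, 10 of the lists and families held a called gene, and 12 of the 19 called genes belonged to at least 1 of them, 6 of these through the class of LOC entries.

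**Figure D4:**
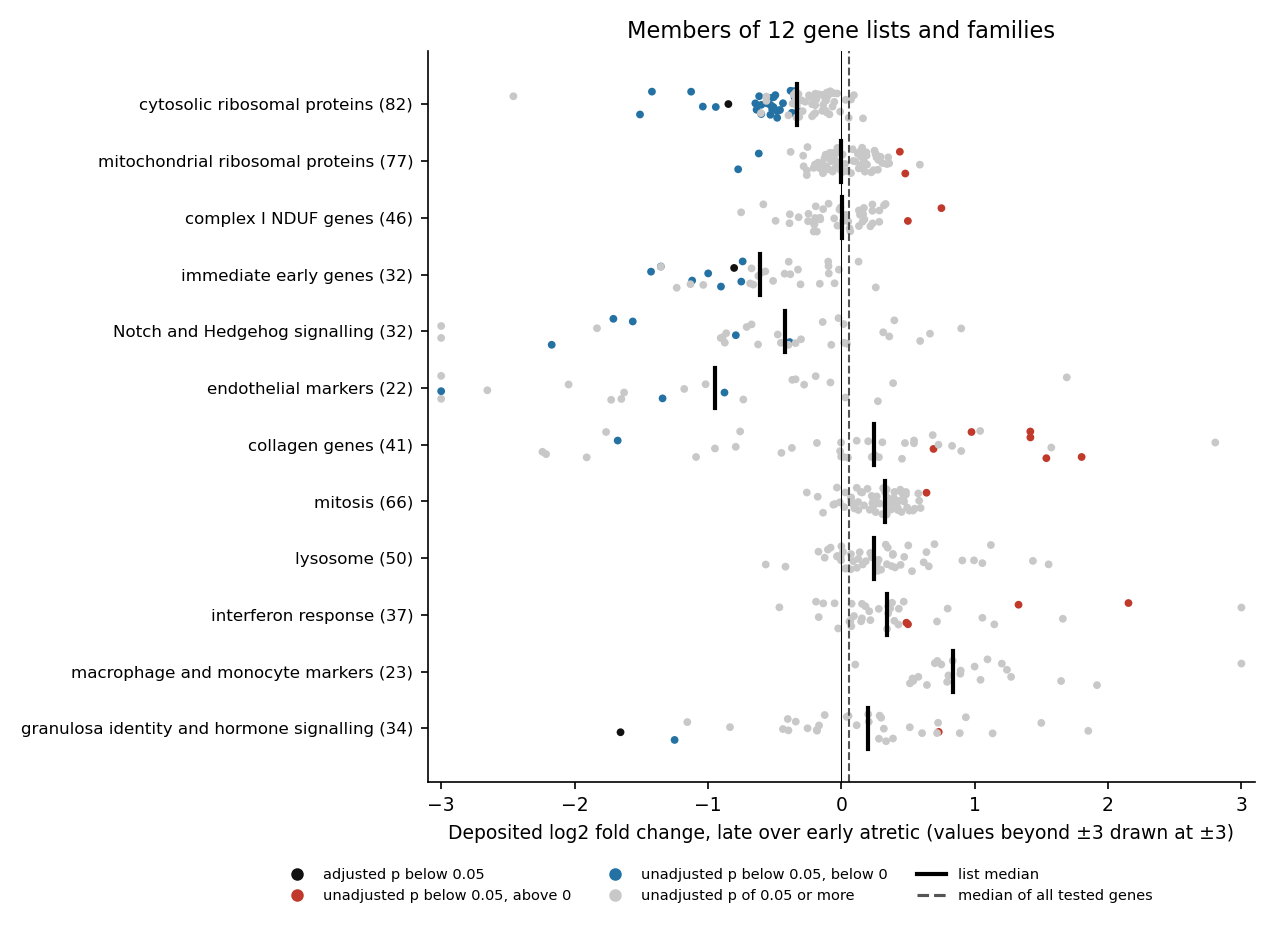
Each point is a tested member of 1 of 12 gene lists or families, placed by its deposited log2 fold change of late over early atretic follicles, with black bars for list medians and a dashed line for the median of all tested genes, 0.06. Cytosolic ribosomal proteins have a median of −0.34 and run from −2.46 to 0.16, with 31 blue or black points past the unadjusted threshold. Macrophage markers lie around 0.84 without a coloured point.

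The direction and the errors varied with expression level, ranked here by mean normalized count, which is not corrected for gene length. In the lowest of 10 groups of tested genes, with means up to 0.90, 58.5% differed by 2-fold or more, the median implied error was 4.04 on the log2 scale, and none passed the unadjusted threshold. In the highest group, with means from 1508, 2.56% differed by 2-fold or more, the median implied error was 0.25, and 8.60% passed the unadjusted threshold. The share past that threshold was 0.399% in the second and 3.36% in the third group, and it lay between 5.87% and 7.52% from the fourth to the ninth. In the highest group, which holds 74 of the ribosomal protein genes, 95 genes passed on the lower side and 56 on the higher side. In the sixth group the order was the other way, with 56 genes on the lower side and 70 on the higher side. All 19 genes called by the adjusted p lay in the fourth group or above.

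**Figure D5:**
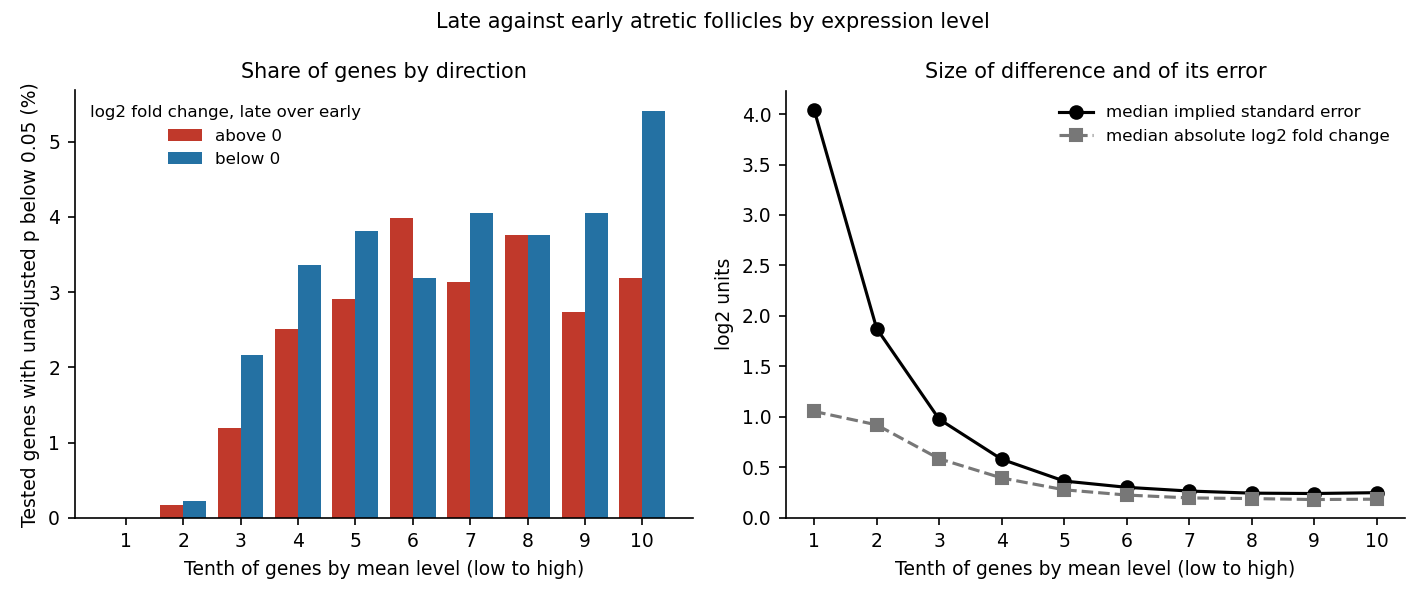
Left, bars give the percentage of tested genes with an unadjusted p below 0.05 in each of 10 groups of rising mean normalized count, red for a log2 fold change of late over early above 0 and blue for one below 0. Right, lines give the median implied standard error and the median absolute log2 fold change, which start at 4.04 and 1.05 in the lowest group and end at 0.25 and 0.18 in the highest.

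Large differences were common without a call. Of the 10065 genes with a mean of at least 100, 267 differed by 2-fold or more, 143 on the higher and 124 on the lower side, and 11 of these were called, 1 higher and 10 lower. The median implied error was 0.61 for the uncalled ones, against 0.28 for the 19 called genes. The implied error is computed from the p-value that also sets the call, so uncalled genes chosen for a large fold change must have larger errors. Not all of the 19 differed by 2-fold or had a mean of at least 100. Genes just outside the threshold, which were chosen after their values were seen, include HMGA1, an architectural chromatin protein, with 59.4 counts in late and 282 in early atretic follicles, a log2 change of −2.25 ± 0.56 and an adjusted p of 0.054 per the authors' deposited table. L1CAM, a cell adhesion molecule, averaged 309 counts in late and 67.9 in early atretic follicles, a log2 change of 2.18 ± 0.56 with an adjusted p of 0.062 per the authors' deposited table. BCL6, a transcriptional repressor, averaged 1157 counts in late and 2354 in early atretic follicles, a log2 change of −1.03 ± 0.27 with an adjusted p of 0.076 per the authors' deposited table.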

How the data were processed

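Per the labels' protocols, RNA was extracted with Trizol and 3 µg per sample entered standard Illumina library preparation. The submitters' processing notes list Bowtie 0.12.2 together with mm8 and mm9, which are mouse builds, without a role. Counter, annotation and test tool: not given in the sources used here. The deposited group means are a signal, read counts normalized and averaged by the authors over 3 samples. The deposited log2 fold change is late over early, per the file headers, and equalled the log2 ratio of the group means to within 0.0088 at means above 50. The p-value and its adjusted form were taken as the authors deposited them.

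Of 21253 rows, 452 exact repeats were dropped, 3188 genes had both means at 0 and 61 had a fold change without a p. The tables give no values per sample (0 such columns were left out), so no test was run anew and a call is an adjusted p below 0.05. The implied standard error is the size of the log2 fold change over the z of a two-sided normal test, an assumption the sources do not state; its computation was tested on simulated data. Python 3.11.15 with pandas 2.3.3 and scipy 1.17.1 was used.

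The 40 gene lists, 11 marker lists and 75 symbol families were chosen with earlier results of these data known. Names come from the gene identifiers and, for LOC numbers, from RefSeq (assembly NDDB_SH_1, which gave names and no printed value), which held 3651 of 4550 LOC numbers and 15413 of 16251 symbols. Named were the called genes with the largest changes, up to 3 members per list by smallest adjusted p, and 24 landmark genes, of which 0 were called; other names were chosen after their values were seen. Tables were scaled separately: means in the tables against healthy follicles were 0.952 (late) and 0.989 (early) of those used here. A few items, among them 1 called gene left out of the plots of called genes, are not reported here.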

Additional observations from a re-analysis of the deposited data

How the results depend on the processing

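Counts of called genes depended on the threshold. At an adjusted p below 0.01, 4 genes passed, 0 higher and 4 lower, and 3 of them belonged to a list or family, against 12 of the 19 called at 0.05. At an adjusted p below 0.1, 39 passed, 7 higher and 32 lower. At an unadjusted p below 0.01, a setting chosen after seeing the data, 276 passed, 98 higher and 178 lower. With the adjusted p recomputed over genes with a mean of at least 100, 25 passed, 6 of them higher. Of the 19 genes called over all genes, 13 also had a fold change of at least 2, and 1 of these was higher. Recomputing Benjamini-Hochberg over unique genes gave 19 again, and keeping genes at or above the median mean gave 17. Ranked by the higher of both group means, 10.2% of genes in the highest level group passed the unadjusted threshold, against 8.60% by their mean. Scaling to the same total or centring on the median moves every gene alike, by 0.03 or 0.05 on the log2 scale, and a pseudocount of 10 cannot turn a ratio of means, so these settings say little about the directions of the 43 named genes to which they were applied. No paired analysis was possible because the files hold group means, and leaving out replicates was not run for the same reason. Depth per library is unknown, so low counts limit what can be seen: 617 tested genes were listed at 0 in late and 576 in early atretic follicles.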

Other observations

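Several gene groups not described above held values of interest. All 10 toll-like receptors had a fold change above 0, with a median of 0.61, and TLR1, which senses bacterial lipopeptides together with TLR2, averaged 511 counts in late and 236 in early atretic follicles, a log2 change of 1.11 ± 0.43 with an adjusted p of 0.64 per the authors' deposited table. Among genes of oxidative stress and glutathione, GPX3, a secreted glutathione peroxidase, averaged 3581 counts in late and 1517 in early atretic follicles, a log2 change of 1.24 ± 0.46, and TXN, thioredoxin, averaged 2889 in late and 4550 in early atretic follicles, a log2 change of −0.66 ± 0.24, per the authors' deposited table. Of the 34 members 3 (8.82%) passed the unadjusted threshold on the higher side and 1 (2.94%) on the lower side. The shares over all tested genes were 2.36% and 3.00%. Of 28 semaphorins and plexins, SEMA6B, PLXNA4 and PLXNA3 (10.7%) passed, all on the lower side. SEMA6B averaged 139 counts in late and 443 in early atretic follicles.

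The 13 protein-coding genes of the mitochondrial genome took 6.21% of summed counts in late and 6.78% in early atretic follicles. Their fold changes on the log2 scale ran, per the authors' deposited table, between −0.93 for ATP8 and 0.40 for ND5. ATP8 averaged 1510 counts in late and 2872 in early atretic follicles, ND3 averaged 3962 in late and 7449 in early atretic follicles, and these 2 genes alone passed the unadjusted threshold. ATP8, ND4L and ND3 are the shortest of the 13, and ND4L averaged 8010 in late and 7927 in early atretic follicles. The part of transcript length in these values was not tested.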
